A study of Mus musculus with 6 samples.

Results

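Hyaluronan is a long unbranched sugar polymer of the extracellular matrix. It is spun out at the cell surface by hyaluronan synthases, cut by hyaluronidases, and held in the matrix by proteins that bind it. In the heart it is made mainly by stromal cells, and it is known as a component of the provisional matrix of wounds. The genes described here encode 3 synthases (Has1, Has2 and Has3), 2 hyaluronidases (Hyal1 and Hyal2) and 4 binding proteins (Vcan, Tnfaip6, Hapln1 and Hapln3). They were taken by gene symbol, 9 genes of the 53460 in the deposited table, and all 9 were found there.

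Total RNA was sequenced from cardiac mesenchymal cells, stromal cells grown from mouse heart, of which the slowly adherent ones were kept, that is, those that attached late to polystyrene culture plates. Per the labels all animals were male C57BL6/J mice of 1 cohort. The sham group (3 libraries) had a thoracotomy without infarction, and the infarct group (3 libraries) had 60 min of ischemia followed by 28 d of reperfusion. The cells had been grown on plastic, so the values describe cultured cells and not the heart itself, and the labels do not say whether animals were pooled or whether each library had its own animal, so p-values measure only the spread between these libraries, which may be technical. The labels describe the infarct group as cells from failing hearts.

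Values are in FPKM, fragments scaled by transcript length and library size, which allows levels of different genes to be compared per length. The steps in the lowest values implied 22.1 to 30.6 M fragments per library. Triplets of values follow library order, and infarct libraries are numbered as in the table, not as in the sample labels. The sex-linked genes went against the labels: Xist, which is expressed from the inactive X chromosome of female cells, stood at 63.1 to 110.9 FPKM in all 6 libraries, and the summed level of 4 genes of the Y chromosome was over 1 FPKM in 3 libraries, all of the infarct group. This difference in Y-linked RNA cannot be told apart from the infarct in the comparisons below. Y-linked RNA was also uneven within the infarct group. Each of the 4 genes was highest in infarct library 1, with Eif2s3y at 10.6, 0.804 and 2.27 FPKM across infarct libraries. Stromal markers were abundant as a sum (8 genes, 2068 to 3285 FPKM for sham, 2307 to 3454 for infarct). Col3a1, Col1a1 and Col1a2 had the highest means among them, and Lum stayed under 1 FPKM in every library. Dcn and Thy1 were lower in all infarct than in all sham libraries, and the groups of the other stromal markers overlapped. Dcn means were 26.7 FPKM (sham) and 16.8 (infarct). The authors' deposited table called Dcn lower (q = 0.0289) and did not call Thy1, while limma, the test used below, called 0 stromal markers. Of 9 macrophage and leukocyte markers, Ptprc and Adgre1 did not exceed 0.0528 FPKM while Lyz2 stood at 6.99 to 28.0. The summed level of 12 endothelial markers was 91.4, 402.8 and 254.6 FPKM across sham libraries against 25.4, 4.09 and 5.82 across infarct libraries. The summed level of 6 genes of cycling cells was highest in infarct library 1 (285.4 FPKM) and sham library 2 (248.7) and lay between 96.0 and 150.9 in the other libraries.

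Across these genes, versican was by far the most abundant and the link protein genes were close to absent. Averaged over the 6 libraries, Vcan stood at 51.0 FPKM, Hyal2 at 12.8, Hyal1 at 6.11, Tnfaip6 at 5.03, Has2 at 4.21, Has1 at 0.952, Hapln3 at 0.146 and Has3 at 0.129, while Hapln1 did not exceed 0.0164. The ranges over the 6 libraries did not overlap between Vcan and Hyal2, between Hyal2 and Hyal1, between Has2 and Has1, or between Has3 and Hapln1. They did overlap between Hyal1 and Tnfaip6, between Tnfaip6 and Has2, between Has1 and Hapln3, and between Hapln3 and Has3, so the order within those pairs is not set by these libraries.

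Between the groups, Hyal2 was lower and Has2 higher on average in infarct libraries, and neither passed the test across all genes. Of the 9 genes, 5 reached the filter of at least 1 FPKM in at least 3 of the 6 libraries (Has2, Hyal1, Hyal2, Vcan and Tnfaip6), and limma called 0 of them at an adjusted p under 0.05. Over all 12720 genes tested, limma called 0.0236%. At an unadjusted p under 0.05, Has2 was counted as higher, against 1.29% of all genes, and Hyal2 as lower, against 2.30%. The median change of the 5 genes was 0.07 (log2 of FPKM + 1, infarct less sham), where that of all tested genes was 0.02. The authors' deposited table tested 6 of the 9 genes and called 1, Has2, as higher, against 0.469% of all genes it tested called higher, 1.19% called lower and 1.66% called in either direction.

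**Figure D1:**
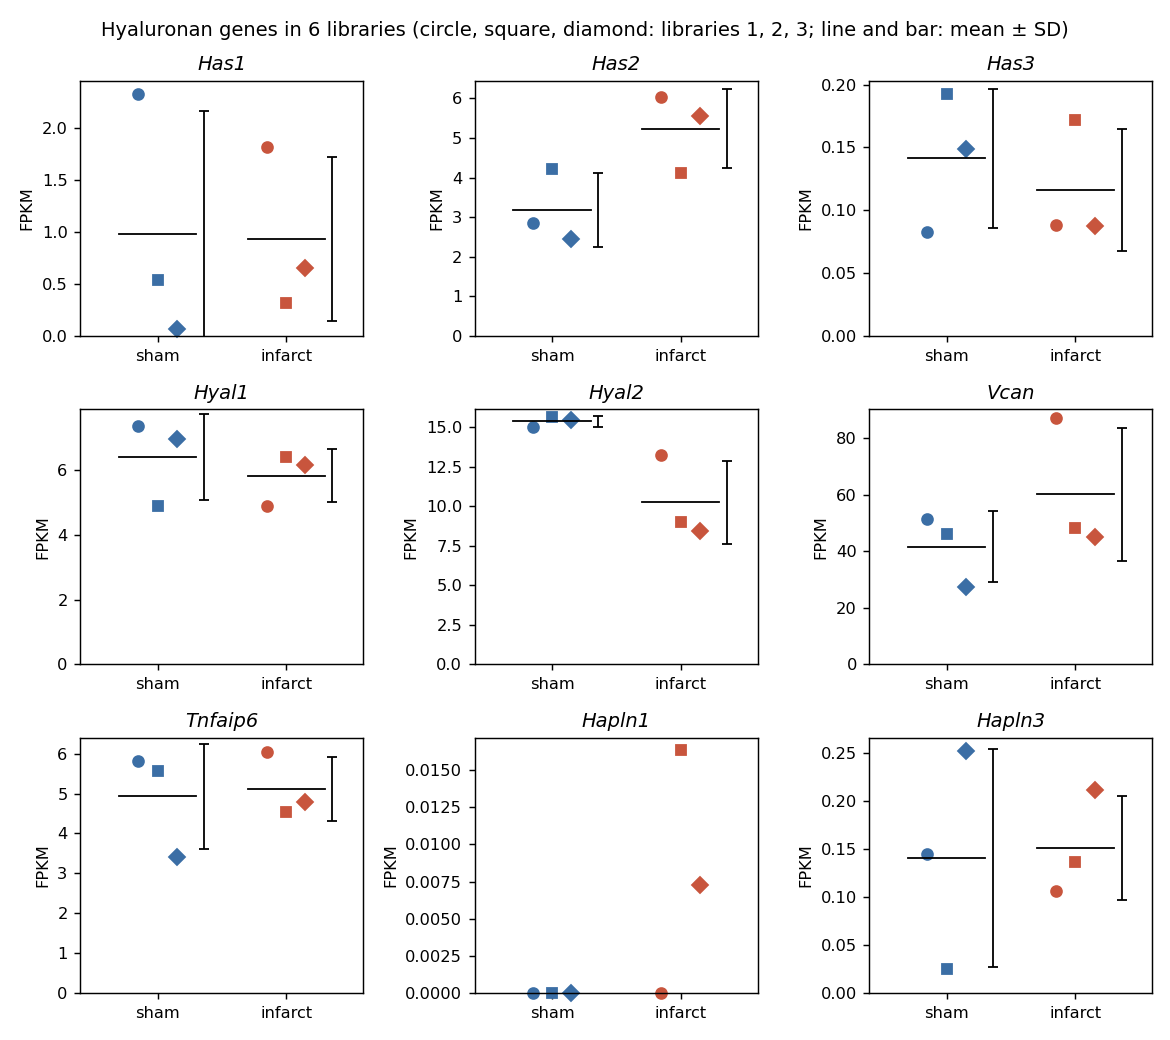
FPKM (y axis, linear from 0, 1 scale per panel) of the 9 hyaluronan genes in the 3 sham and 3 infarct libraries; each symbol is 1 library, the horizontal line is the group mean and the bar its SD, cut at 0, with neither drawn for Hapln1. The groups are apart only for Hyal2, where the sham libraries sit between 15.0 and 15.7 and the infarct libraries between 8.45 and 13.3.

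The synthases differ in the length of the chains they make, and Has2 is the one that the developing mouse heart cannot do without. Has2 (ENSMUSG00000022367, chromosome 15, 56665627 to 56694539, minus strand, GRCm38) was measured at 2.86, 4.22 and 2.46 FPKM across sham and at 6.03, 4.11 and 5.57 across infarct libraries. Infarct library 2 lay just below sham library 2, so the groups overlapped, while the other infarct libraries lay above all sham libraries. The group means were 3.18 ± 0.925 and 5.24 ± 1.002 FPKM (SD, n = 3 each), a ratio of 1.65, and the log2 change was 0.59 ± 0.198 (SE; 95% interval 0.12 to 1.06; limma adjusted p = 1). An exact two-sided permutation test of Has2 alone gave p = 0.2, where 3 libraries against 3 can give no less than 0.1.

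In the authors' deposited table, Has2 was called higher in the infarct group, with group levels of 3.26 (sham) and 5.37 FPKM (infarct) and a q of 0.0477, close to the threshold of 0.05. At the implied depth and with its 1 annotated transcript of 4237 nt, Has2 stood on 281.7 to 624.7 fragments per library, so that counting alone gives an error of at most 5.96%, less than the spread between libraries of a group. The antisense gene Has2os overlaps Has2 on the other strand and was at 0.203 to 1.09 FPKM, with 0.757, 0.347 and 0.426 across sham against 0.203, 0.529 and 1.09 across infarct libraries. The labels call the sequencing directional, but whether strand was used in counting is not given in the sources used here, so reads of the overlap are uncertain. Without sham library 2 the Has2 change was 0.76 and its limma adjusted p 0.980, and without infarct library 2 the change was 0.72. Leaving out sham library 1 or 3 gave 0.54 or 0.46, and leaving out infarct library 1 or 3 gave 0.49 or 0.54. Without sham library 1 or 3, or infarct library 1 or 3, the unadjusted limma p was 0.0639 to 0.0695, above 0.05.

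Has1 encodes another synthase of the plasma membrane. Has1 (ENSMUSG00000003665, chromosome 17, 17843323 to 17855205, minus strand) stood at 2.32, 0.540 and 0.0702 FPKM across sham and at 1.82, 0.316 and 0.649 across infarct libraries. Sham library 1 and infarct library 1 were the highest of their groups, and the sham libraries spanned a ratio of 33.0 between highest and lowest, the widest of the 8 genes detected in every library. The group means of 0.977 ± 1.19 and 0.928 ± 0.789 FPKM differed by less than either SD, and an exact two-sided permutation test gave p = 0.9. Has1 did not reach the filter, and on its longer annotated transcript it rested on 7.10 to 189.0 fragments.

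Has3 encodes the third synthase, known for making shorter chains. Has3 (chromosome 8, 106870242 to 106884566, plus strand, overlapping Chtf8) was at 0.0826, 0.192 and 0.149 FPKM across sham and at 0.0886, 0.172 and 0.0877 across infarct libraries. These levels correspond to 11.5 to 28.2 fragments on the longest transcript, where counting error alone reaches 29.5%, and the groups overlapped (exact two-sided permutation p = 0.7).

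Taken as a sum, the 3 synthases stood at 5.26, 4.96 and 2.68 FPKM across sham and at 7.94, 4.60 and 6.31 across infarct libraries, so the groups overlapped. The Has2 part of that sum was 54.3%, 85.2% and 91.8% across sham against 76.0%, 89.4% and 88.3% across infarct libraries. Has1 took most of the rest in 5 of the 6 libraries, and in sham library 3 Has3 did (5.56% against 2.62%). Sham library 1, where the Has1 share was 44.1%, was the library in which the synthase RNA was most evenly divided. Without that library the mean Has2 share was 3.96 percentage points lower in infarct than in sham libraries, in place of 7.44 points higher (a difference of -3.96 in place of 7.44).

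**Figure D2:**
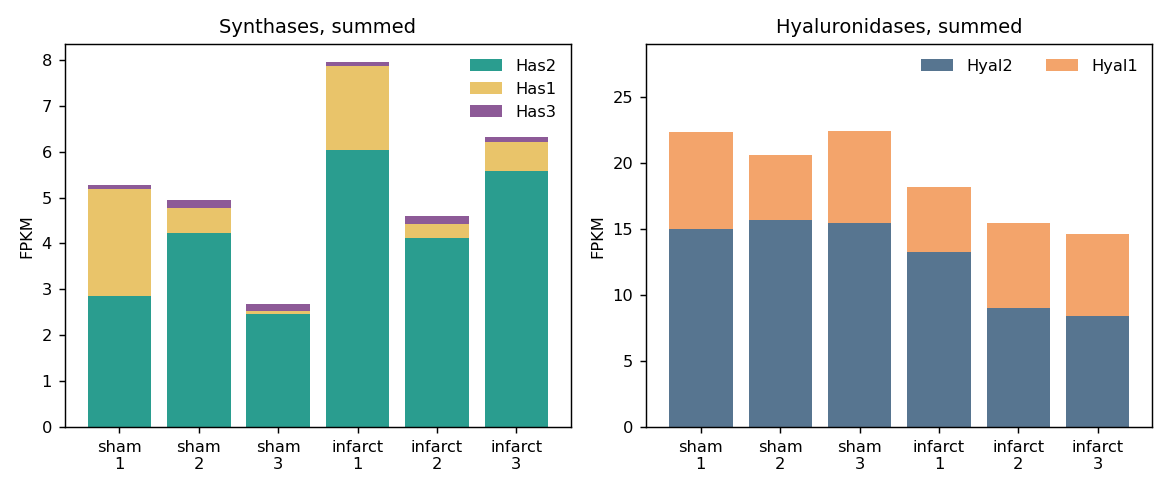
Summed FPKM (y axes, linear from 0) of the 3 synthase genes (left) and the 2 hyaluronidase genes (right) in each of the 6 libraries, 1 bar per library divided by gene. Has2 is the largest part of each synthase bar, and the hyaluronidase bars run from 20.6 to 22.4 in sham and from 14.6 to 18.2 in infarct libraries.

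Of the hyaluronidases, Hyal2 encodes an enzyme anchored at the cell surface that cuts long hyaluronan into fragments, and Hyal1 a lysosomal enzyme that cuts these further. Hyal2 (ENSMUSG00000010047, chromosome 9, 107567945 to 107572779, plus strand) was at 15.0, 15.7 and 15.5 FPKM across sham and at 13.3, 9.03 and 8.45 across infarct libraries. All infarct libraries lay below all sham libraries, which held for 4.10% of all tested genes, and 3.71% were apart in the other direction. The sham libraries differed from each other by a ratio of only 1.05, and infarct library 1 lay nearer to them than to the other infarct libraries. The means were 15.4 ± 0.349 and 10.3 ± 2.64 FPKM (SD, n = 3 each), and the log2 change was -0.57 ± 0.164 (SE; 95% interval -0.96 to -0.18; limma adjusted p = 0.920). The exact two-sided permutation p was 0.1, the smallest that this design allows.

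Leaving out infarct library 1 moved the Hyal2 change to -0.75 with an adjusted p of 0.357, and without infarct library 3 it was -0.45. The authors' deposited table gave Hyal2 a q of 0.769 and did not call it. Infarct library 1 was also the infarct library with the highest summed levels of endothelial markers and of cycling genes, and with the most Y-linked RNA. Within the sham group the summed level of endothelial markers ran from 91.4 to 402.8 FPKM while Hyal2 stayed between 15.0 and 15.7. In bulk RNA, fewer cells of a type and less RNA per cell cannot be told apart. The part of any of these traits in the Hyal2 difference was not tested. Hyal2 overlaps the gene model Gm9917 and is listed in a merged locus (107551555 to 107572779), so its reads are partly uncertain. The listed loci of Has2, Has3, Hyal1 and Vcan also run beyond their gene spans.

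Hyal1 (ENSMUSG00000010051, chromosome 9, 107576927 to 107581710, plus strand), which lies close to Hyal2 and overlaps Naa80 and Hyal3, was at 7.36, 4.88 and 6.95 FPKM across sham and at 4.90, 6.42 and 6.16 across infarct libraries. The groups overlapped, and the change was -0.11 ± 0.170 (SE; 95% interval -0.51 to 0.30; limma adjusted p = 1). Its lowest values were in sham library 2 and infarct library 1, the same libraries in which the genes of cycling cells were highest; the part of cycling cells was not tested.

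Summed over Hyal1 and Hyal2, the level was 22.4, 20.6 and 22.4 FPKM across sham against 18.2, 15.5 and 14.6 across infarct libraries. Set against the synthase sum, there were 4.25, 4.15 and 8.37 FPKM of hyaluronidase for each FPKM of synthase across sham against 2.29, 3.36 and 2.32 across infarct libraries. All infarct libraries had the lower ratio, but how often sums of other genes separate the groups was not counted. Its largest parts are Has2 and Hyal2, whose group means moved in opposite directions. The ratio leaves out Cemip, another gene of hyaluronan breakdown, at 215.0 to 480.8 FPKM with overlapping groups. No p is given for these sums, because the genes were chosen with earlier results of these data known.

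Vcan encodes versican, a large proteoglycan of loose matrix that binds hyaluronan through its N-terminal domain and is known from the developing heart and from wounds. Vcan (ENSMUSG00000021614, chromosome 13, 89655312 to 89742509, minus strand) was at 51.4, 46.3 and 27.5 FPKM across sham and at 87.3, 48.2 and 45.2 across infarct libraries. Infarct library 1 was far above the others and sham library 3 far below, while the remaining 4 libraries lay close together at 45.2 to 51.4. The means were 41.7 ± 12.5 and 60.2 ± 23.5 FPKM (SD, n = 3 each), a ratio of 1.44, and the log2 change was 0.50 ± 0.316 (SE; 95% interval -0.25 to 1.25; limma adjusted p = 1).

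That difference leaned on 1 library of each group: it was 0.21 without infarct library 1 and 0.23 without sham library 3. In the authors' deposited table Vcan had a q of 0.298 and was not called. Infarct library 1 also had the highest summed level of cycling genes and sham library 3 the lowest, at 285.4 and 96.0 FPKM, but sham library 2, at 248.7, was among the 4 libraries of similar Vcan; the part of cycling cells was not tested. The table gives 1 value per gene, so the 9 annotated transcripts, among them splice forms that differ in the sugar-bearing region, were not separated.

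Tnfaip6 encodes TSG-6, a secreted protein induced by inflammatory signals that moves heavy chains of inter-alpha inhibitor onto hyaluronan. Tnfaip6 (ENSMUSG00000053475, chromosome 2, 52038009 to 52056686, plus strand) was at 5.82, 5.56 and 3.41 FPKM across sham and at 6.04, 4.54 and 4.80 across infarct libraries. The groups overlapped in part, with means of 4.93 ± 1.32 and 5.12 ± 0.801 FPKM (SD, n = 3 each) and a change of 0.07 (SE 0.197; 95% interval -0.40 to 0.53; limma adjusted p = 1). With 1 transcript of 1710 nt the values rested on 149.4 to 231.3 fragments. Like Has2 and Vcan, Tnfaip6 was lowest in sham library 3 and highest in infarct library 1.

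Over the 6 libraries Vcan and Tnfaip6 had the highest Pearson correlation of log2(FPKM + 1) among pairs of the 5 tested genes (r = 0.852, n = 6), given as a description of libraries that also share depth and culture differences. Has2 and Vcan followed (0.721), and Has2 and Hyal1 ran most opposite (-0.72). Because Hyal2 was the gene whose groups were apart, and Vcan and Tnfaip6 the pair most alike, their promoters are shown, as 300 bases from 250 before to 50 after the start of the gene as RefSeq (GRCm38.p6) gives it. RefSeq's table matched 7 of the 9 genes. Its starts can differ from the gene spans given above. The Hyal2 window lies wholly inside the span given for that gene, and the RefSeq start of Tnfaip6 also lies inside its span. The sequences run 5′ to 3′ on the strand of the gene, and capitals mark matches, on either strand, to a TATA box (TATAAA), a GC box (GGGCGG), an AP-1 motif (TGANTCA) or a TEAD motif (GGAATG).

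Hyal2 promoter, chr9:107568913-107569212, plus strand: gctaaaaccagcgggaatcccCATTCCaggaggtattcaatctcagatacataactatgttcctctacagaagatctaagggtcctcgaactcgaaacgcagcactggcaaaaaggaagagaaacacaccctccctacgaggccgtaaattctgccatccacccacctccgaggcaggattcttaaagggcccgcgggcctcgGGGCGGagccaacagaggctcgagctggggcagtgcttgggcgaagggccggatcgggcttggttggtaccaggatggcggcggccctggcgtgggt

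Vcan promoter, chr13:89742463-89742762, minus strand: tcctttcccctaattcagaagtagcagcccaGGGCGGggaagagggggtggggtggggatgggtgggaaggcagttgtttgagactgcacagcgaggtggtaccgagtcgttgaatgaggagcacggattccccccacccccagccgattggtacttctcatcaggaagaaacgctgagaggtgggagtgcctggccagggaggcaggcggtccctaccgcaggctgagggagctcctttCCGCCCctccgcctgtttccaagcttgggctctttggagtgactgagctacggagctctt

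Tnfaip6 promoter, chr2:52037863-52038162, plus strand: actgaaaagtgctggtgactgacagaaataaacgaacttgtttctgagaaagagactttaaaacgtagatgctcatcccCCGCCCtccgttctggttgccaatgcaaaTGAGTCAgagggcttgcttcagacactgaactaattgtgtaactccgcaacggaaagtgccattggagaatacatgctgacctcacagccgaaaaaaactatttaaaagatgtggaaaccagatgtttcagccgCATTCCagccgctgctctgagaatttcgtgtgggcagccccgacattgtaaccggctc

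A GC box was present in all 3 windows, and 35.7% of all 32851 promoters held one. Counted from the RefSeq start, it began at position -47 in Hyal2, at -219 and -10 in Vcan and at -171 in Tnfaip6. A TEAD motif lay at -229 in Hyal2 and at -8 in Tnfaip6 (14.7% of all promoters). The AP-1 motif lay in Tnfaip6 at -142 (7.81% of all promoters). The TATA box letters, held by 13.6% of promoters, were in none of the 3 windows, and of the 7 matched genes they were in that of Hapln3. The Vcan and Tnfaip6 windows thus shared the GC box among the letters searched. A match is a description of the letters and not a binding site.

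The link proteins Hapln1 and Hapln3 clamp hyaluronan to versican-type proteoglycans. Hapln1 (chromosome 13, 89539796 to 89611652, plus strand) had a listed value of 0 in infarct library 1 and in all 3 sham libraries, and of 0.0164 and 0.00729 FPKM in infarct libraries 2 and 3. On its longest transcript these 2 values stand for 2.00 and 1.00 fragments, so no fold is given. Hapln3 (chromosome 7, 79115102 to 79131018, minus strand) was at 0.145, 0.0247 and 0.252 FPKM across sham and at 0.107, 0.136 and 0.211 across infarct libraries. Its groups overlapped, its values rested on 2.00 to 24.3 fragments on the longest transcript, and an exact permutation test gave p = 1. Versican RNA was thus abundant in libraries in which the RNA of both link proteins was at or below 0.252 FPKM.

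**Figure D3:**
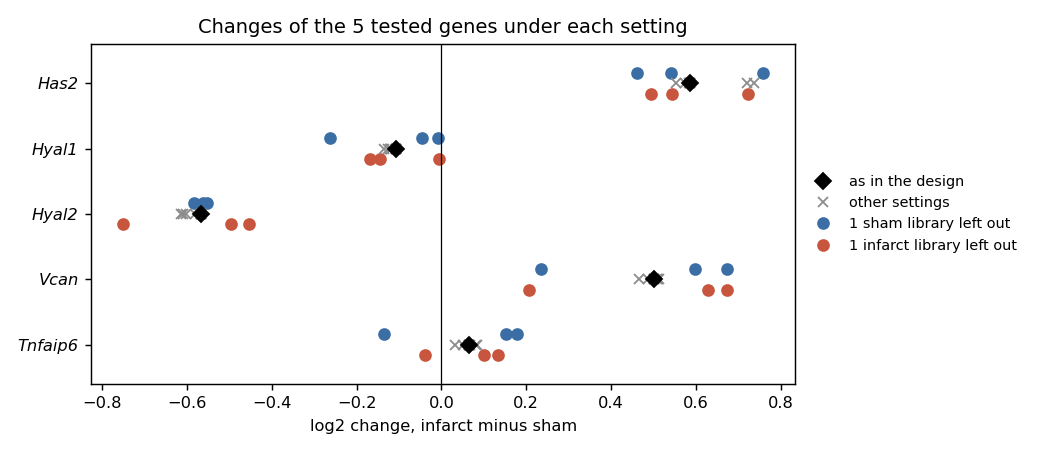
Change of the 5 tested genes (x axis, log2 scale, infarct minus sham) with all libraries as in the design (black diamonds), under other settings (grey crosses) and with 1 library left out (blue for sham, red for infarct). Hyal2 lies between -0.75 and -0.45 and Has2 between 0.46 and 0.76, while Tnfaip6 falls on both sides of 0.

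The genes with the most similar course over the 6 libraries were found by Pearson correlation of log2(FPKM + 1) among all tested genes, leaving out models named Gm or ending in Rik, 2 for each tested gene. They were Smug1 (r = 0.986) and Cep57l1 (0.982) for Has2, Ube2z (0.997) and Shoc2 (0.996) for Hyal1, and Ing2 (0.995) and the gene model AC134439.2 (0.984) for Hyal2. For Vcan they were Egfr (0.994) and Dhrs4 (0.992), and for Tnfaip6 Rbm12 (0.997) and Stat5a (0.997). With 6 libraries and 12720 genes such values describe a likeness of course only, and r does not reflect the size of a change. Ube2z varied little, from 29.4 to 31.2 FPKM, where Hyal1 ran from 4.88 to 7.36. Likewise Smug1 stood at 1.95 to 2.22 FPKM, where Has2 ran from 2.46 to 6.03. Ing2 was at 6.43, 6.93 and 6.83 FPKM across sham and at 6.23, 4.72 and 4.61 across infarct libraries, and so showed infarct library 1 near the sham libraries, as Hyal2 did. Egfr, a growth factor receptor gene, was at 17.9, 15.3 and 10.5 FPKM across sham and at 29.2, 16.9 and 16.7 across infarct libraries, with the same high and low library as Vcan.

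Among the 48 other genes of hyaluronan supply, breakdown, binding and response that the table held, 28 reached the filter, limma called 0, and at an unadjusted p under 0.05 there was 1 higher (Adamts4, against 1.29% of all genes) and 1 lower (Stab1, against 2.30%). Their median change was 0.05, against 0.02 for all genes. The same genes were the ones apart between the groups, 1 of 28 in each direction, which is near the 3.71% and 4.10% of all tested genes. The authors' deposited table tested 29 of them and called 2 higher (Ptx3 and Adamts9) and 2 lower (Stab1 and Tmem2), where it called 0.469% of all genes higher and 1.19% lower.

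The supply of sugar precursors was well expressed. None of the 9 supply genes tested was called, and their median change was 0.03. Ugdh, whose enzyme makes the UDP-glucuronate that the synthases use, was the most abundant with 122.7 ± 42.0 FPKM (sham) against 105.9 ± 11.3 (infarct; SD over 3 libraries each). Gfpt2, which opens the hexosamine branch, stood at 60.1 ± 10.6 and 61.3 ± 10.9, Ugp2 at 41.0 ± 4.38 and 43.0 ± 7.73 and Gfpt1 at 26.1 ± 3.60 and 27.9 ± 2.76 FPKM. The other 5 had means over the 6 libraries of 12.7 to 26.8 FPKM. The largest change in size among the 9 was that of Uap1l1, -0.25 with an SE of 0.269.

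RNA for hyaluronan breakdown was dominated by Cemip, whose protein binds hyaluronan and drives its depolymerisation in fibroblasts. Cemip stood at 293.5, 220.3 and 430.8 FPKM across sham and at 215.0, 480.8 and 359.7 across infarct libraries, above Hyal1 and Hyal2 in every library. It was lowest in sham library 2 and infarct library 1, and its change of 0.14 (SE 0.343; limma adjusted p = 1) was within the spread. Tmem2, which encodes a cell-surface protein related to that of Cemip, was at 8.94, 17.1 and 14.0 FPKM across sham and at 11.5, 7.53 and 7.48 across infarct libraries. The authors' deposited table called Tmem2 lower (q = 0.0358), while in limma its change was -0.53 (SE 0.255; adjusted p = 1), and -0.34 without sham library 2, and its groups overlapped.

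Lysosomal glycosidase genes, whose enzymes finish the breakdown, overlapped between groups, with Hexa at 76.8 ± 18.8 and 80.4 ± 17.9 FPKM and Gusb at 36.6 ± 2.02 and 36.0 ± 2.70 (SD, n = 3 each). Of the other hyaluronidase genes, Hyal3 reached 0.517 FPKM at most, and Hyal4, Hyal5, Hyal6 and Spam1 were listed at 0 in every library.

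Among receptors, Cd44, the main cell-surface receptor for hyaluronan, was the most abundant with 117.4 ± 23.4 FPKM (sham) against 136.3 ± 25.7 (infarct). It was highest in infarct library 1 (165.4) and lowest in sham library 3 (93.0), as were Has2, Vcan and Tnfaip6. Layn, the gene of layilin, followed at 38.1 to 56.7 FPKM over the 6 libraries, and Tlr4, a pattern recognition receptor gene, stood at 18.4 ± 2.34 (sham) and 15.5 ± 2.69 FPKM (infarct). Hmmr, which encodes a hyaluronan-binding protein of the mitotic spindle, was at 19.6 FPKM in sham library 2 and 19.0 in infarct library 1, where cycling genes were highest, and at 7.04 to 11.1 in the other 4 libraries. None of these 4 was called.

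Stab1, a scavenger receptor gene of endothelial cells and macrophages that belongs to a family with a hyaluronan-binding member, was at 8.11, 24.5 and 20.4 FPKM across sham and at 3.29, 0.198 and 2.22 across infarct libraries. The order of the libraries was that of the summed endothelial markers within the sham group, and all infarct libraries were lower. The part of endothelial cells or macrophages in the Stab1 difference was not tested. The change was -2.75 (SE 0.558; limma adjusted p = 0.496), while the authors' deposited table called it lower (q = 0.00579). Of the 9 macrophage and leukocyte markers, 4 (Ptprc, Adgre1, Fcgr1 and Itgam) stayed under 0.1 FPKM, and the summed level of all 9 was 10.4 to 29.5 FPKM for sham and 15.5 to 30.3 for infarct libraries. Lyve1, a receptor gene of lymphatic vessels, was at 0.869, 4.02 and 2.63 FPKM across sham and at 1.84, 0.507 and 1.09 across infarct libraries and was not called.

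Of the other binding proteins, Ptx3 was the most abundant. It encodes pentraxin 3, which together with TSG-6 and inter-alpha inhibitor crosslinks hyaluronan in the mouse ovarian follicle. Ptx3 stood at 125.0, 47.5 and 92.5 FPKM across sham and at 72.3, 216.0 and 146.5 across infarct libraries, so the groups overlapped and the lowest library of each was again sham library 2 and infarct library 1. The authors' deposited table called it higher (q = 0.00325), and in limma the change was 0.68 (SE 0.473; adjusted p = 1), but 0.29 without sham library 2, 0.33 without infarct library 2 and 1.11 without infarct library 1. Itih2, a gene of an inter-alpha inhibitor heavy chain, ranged from 5.55 FPKM in sham library 3 to 32.9 in infarct library 1, and Habp4, which encodes an intracellular hyaluronan-binding protein, stood at 7.66 to 12.2 FPKM over the 6 libraries. Itih1, Itih3, Itih4 and Itih5 did not exceed 0.231 FPKM and Ambp, the gene of its light chain bikunin, 0.0396. Acan, Ncan and Bcan, the genes of the proteoglycans related to versican, did not exceed 0.716 FPKM.

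None of the 4 versican-cleaving proteases that could be tested was called. Adamts4 was at 3.52, 2.82 and 2.85 FPKM across sham and at 4.53, 3.89 and 3.85 across infarct libraries, apart between groups, with a change of 0.33 (SE 0.125; limma adjusted p = 1). Adamts9 was at 7.91, 5.20 and 8.97 FPKM across sham and at 8.24, 17.6 and 9.60 across infarct libraries; the authors' deposited table called it higher (q = 0.0282), and limma gave a change of 0.57 (SE 0.296; adjusted p = 1), which was 0.27 without infarct library 2 and 0.37 without sham library 2. The more abundant Adamts5, at 78.7 ± 31.7 and 91.2 ± 35.4 FPKM, and Adamts1, at 46.9 ± 9.10 and 50.3 ± 17.5 (SD, n = 3 each), were both lowest in sham library 2 and infarct library 1, and the sign of both changes depended on single libraries: without sham library 2 they were -0.17 for Adamts5 and -0.11 for Adamts1. Adamts15 and Adamts20 did not exceed 0.246 FPKM.

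**Figure D4:**
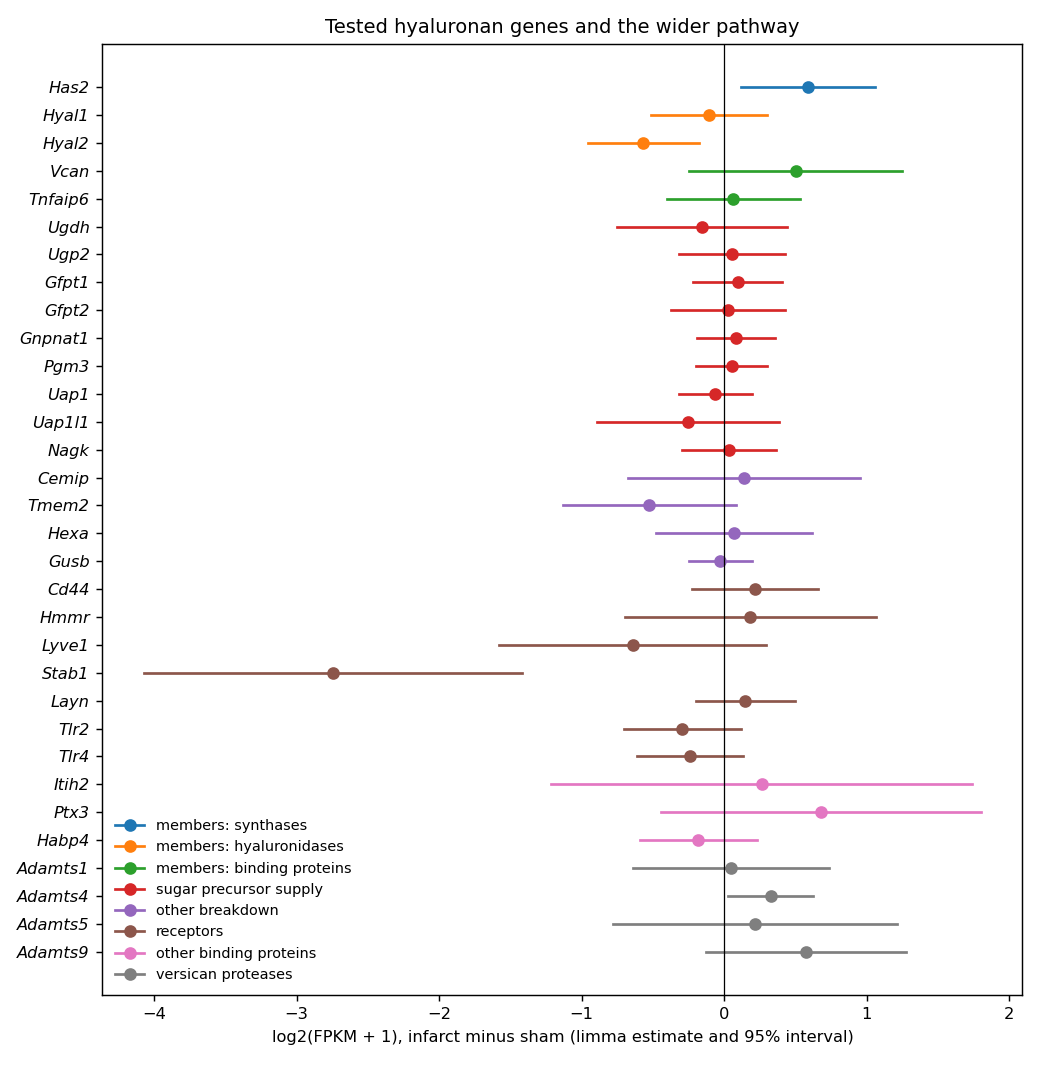
Change of the 5 tested hyaluronan genes and of further tested genes of the pathway (x axis, log2(FPKM + 1), infarct minus sham; points are limma estimates and lines 95% intervals, coloured by role). The intervals of Has2 and Adamts4 lie above 0, that of Hyal2 below 0 and that of Stab1, at -2.75, furthest below. None of the genes drawn passed after adjustment over all tested genes.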

How the data were processed

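RNA of 6 libraries (3 sham, 3 infarct) was measured. The authors deposited FPKM values per library and group, and p-values and q-values of their own test, per the file headers. Cuffdiff, Cufflinks, StringTie, HISAT2, SAMtools and version 0.36 of Trimmomatic are listed without roles, with build GRCm38, in the submitters' processing notes. The annotation used is not given in the sources used here. FPKM depends on the library total, to which the 10 most abundant genes contributed 40.3% to 49.7% of summed FPKM.

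Entries with too many fragments to estimate (14, no member among them) were left out and entries of 1 symbol summed. To compare the groups, limma (3.58.1, R 4.3.3) was fitted to log2(FPKM + 1) with its trend option, two-sided, with Benjamini-Hochberg adjustment over the 12720 genes that reached 1 FPKM in 3 or more libraries; the scale understates changes of low genes. The test was run on simulated data with independent noise, where only recovery of the largest simulated shifts was required. Those data hold no shared differences between libraries, so the check does not show that changes of the size seen here would be called. Single genes were also tested by exact permutation. Python 3.11.15 was used for the rest. Fragments per library were estimated from the step of the lowest values in genes with 1 transcript of 2 to 12 kb in GENCODE M21, an annotation of GRCm38 that held 99.6% of the gene IDs, with 210 to 225 nt subtracted from the length; 97.9% to 98.8% of low values then lay within 0.1 of a whole number, a share that includes the values that set the step. These depths cover counting error only.

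The genes and lists were chosen with earlier results of these data known. All 9 genes were named; from the wider lists, called genes and up to 4 of the most abundant per list with a mean of at least 1 FPKM, and for likeness the 2 genes of highest correlation. Other wider-list genes named with values (Tmem2, Stab1, Lyve1, Uap1l1, Hyal3 and those near 0) were chosen after their values were seen. The values of 1 gene of the wider lists are not reported here. Alternatives covered pseudocount, filter, scaling, trend and each library left out.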

Additional observations from a re-analysis of the deposited data

How the results depend on the processing

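None of the 5 tested hyaluronan genes and none of the 28 other tested pathway genes was called by limma under those of the 14 alternatives in which it was tested; most of the remaining genes were tested only without a filter, with no call. Hyal2 changed by -0.75 to -0.45, with adjusted p from 0.357 to 1, and kept its sign under all 14; Has2 changed by 0.46 to 0.76 under 13 and was not tested with a filter of 5 FPKM, which it did not reach. Vcan ran from 0.21 to 0.67 and Hyal1 from -0.26 to -0.005 without a change of sign. Tnfaip6 turned negative without sham library 3 (-0.14) and without infarct library 1 (-0.04), and its range was -0.14 to 0.18; the cause was not tested.

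Over all genes, 2 were called higher and 1 lower. The count lower was 0 with a pseudocount of 0.1 or 0.01 FPKM. Without a filter it was 1 higher and 0 lower, and 0 and 0 without small, ribosomal and mitochondrial RNA. With 1 library left out, 0 to 1 were called higher and 0 to 2 lower. The Has2 share of synthase FPKM differed by -3.96 to 14.8 percentage points with 1 library left out, negative without sham library 1. The log2 ratio of synthase to hyaluronidase FPKM was 1.02 higher in infarct libraries, and 0.69 to 1.20 with 1 library left out; the synthase sum ran from 0.26 to 0.78 and the hyaluronidase sum from -0.53 to -0.38.

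No paired analysis was possible because the infarct columns of the table cannot be matched to the numbered infarct samples. Nor do the sample titles link any sham sample to an infarct sample, so a paired design is not known to exist. Depth limits Has3, Hapln1 and Hapln3, which rest on at most 28.2 fragments per library on the longest transcript. It also limits Has1 at its low end. In sham library 3 Has1 rested on 7.1 fragments on its longest transcript, where counting error alone is 37.5%.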
